A study of Mus musculus with 4 samples.

Results

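In bisulfite sequencing of RNA, a methylation level rests on the reads that were used to compute it, which can be fewer than the reads that cover the position. The sites described here are those where under 0.3 of the covering reads were used, in a deposited list of cytosine methylation sites unique to Tet2 KO leukemia cells. They were picked among positions on the named chromosomes that 1 KO replicate had called and that at least 30 reads covered, with the reads used taken as the unconverted reads divided by the level and rounded. The rule kept 5674 of 71386 such positions (7.95%), out of 506952 listed positions in all. The other 65712 positions of the same kind, called the other sites, served for comparison. Coverage, reads used, unconverted reads and level all enter the rule, so they are given as a description with no test.

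The RNA came from NRAS/AE9a cells, mouse acute myeloid leukemia (AML) cells that carry NRAS and AE9a, a shortened AML1-ETO fusion protein. There were 2 WT libraries and 2 Tet2 KO libraries of poly(A) RNA, all bisulfite-converted, from a design that planned 70000000 single-end reads each. Cells of both genotypes grew in medium with murine SCF (50 ng/ml), IL-3 and IL-6 (10 ng/ml each), G418 (1 mg/ml) and puromycin (2 µg/ml). Neither the source of the replicates (separate cultures, clones or 1 culture) nor the way Tet2 was removed is in the labels, and the table used here holds no WT values, so no site is compared between genotypes.

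Bisulfite converts unmethylated cytosine to uracil, which is sequenced as thymine, whereas 5-methylcytosine resists and is still read as cytosine. Methyl groups on RNA cytosines are placed by enzymes such as Nsun2, and Tet2 is a dioxygenase that oxidises 5-methylcytosine. Covering reads that were not used for a level add nothing to it, so the level of a site with a low share describes only a small part of its reads. By what criterion reads were left out is not stated in the labels or the file.

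The reference base at a listed position was not used by the rule, and it separated the sites by their share of reads used. It could be read for 601 of the 71386 positions, those inside RefSeq windows that run from 250 bases before to 50 bases after a gene's start or inside a miRNA hairpin (assembly GRCm38.p6, the assembly that mm10 names). All 74 sites with under 0.3 of the reads used lay on a reference cytosine (100%, exact 95% interval 95.1 to 100%). So did all 255 positions where 0.3 to under 0.8 of the reads were used. Of the 272 positions with 0.8 or more of the reads used, 3 lay on a cytosine (1.10%, exact interval 0.228 to 3.19%), 109 on an adenine and 160 on a guanine.

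Sequences of 9 of these sites follow, 5′ to 3′ on the strand of the site, to show the cytosine at the listed position and the bases around it. The capital letter marks the listed position, with 12 reference bases on each side. Each line is named by the gene label in the table or, for Efcab14, Cmip, Ctdnep1, Mrps7 and Usp7, which have no label there, by the gene whose start window holds the site.
Efcab14, chr4:115737954-115737978, plus strand: ctcatcactgcgCcccctccaggcc
Cmip, chr8:117256925-117256949, plus strand: gcgccccgcgcgCccccgcctgccc
Ctdnep1, chr11:69980942-69980966, plus strand: cggctccccctcCccctcctcccca
Sdf4, chr4:155993236-155993260, plus strand: gtcttattcgccCcttcccggaaga
Mrps7, chr11:115604088-115604112, plus strand: ctcatccgtgtcCtgtcgctcactc
Arpc4, chr6:113389081-113389105, plus strand: taacctttttgtCtttttttttttt
Hsp90ab1, chr17:45573170-45573194, minus strand: tgtactactactCggctttcccgtc
Usp7, chr16:8738439-8738463, minus strand: ccgccgccgccgCccgccgcgggcc
Mcpt8, chr14:56085166-56085190, minus strand: aggatgttcctgCtcctggtcctcc

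The first 6 are among the deepest such sites on the plus strand with 12 readable bases on each side, and the last 3 among those on the minus strand, taken 1 per gene. At Efcab14 77 reads covered the site, 18 were used and 12 of these were unconverted. The Cmip site is the first of the longest run, described further down, and had 9 unconverted of 11 used reads with 74 covering. At Ctdnep1, a nuclear envelope phosphatase gene, 2 of 10 used reads were unconverted among 71 covering. The Sdf4 site had 8 of 10 and the Mrps7 site, in a gene for a mitochondrial ribosomal protein, 7 of 10. The bases around the sites differ widely: the Cmip and Usp7 windows are nearly all cytosine and guanine, whereas the cytosine of Arpc4, a subunit of the actin-branching Arp2/3 complex, stands in a run of thymines. Arpc4 had 40 reads used of 143, of which 8 were unconverted. On the minus strand, the gene of the heat shock protein Hsp90ab1 had 3 unconverted of 13 used reads, the deubiquitinase gene Usp7 6 of 16 and the mast cell protease gene Mcpt8 3 of 11.

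For contrast, 5 positions with 0.8 or more of the reads used are printed in the same way.
Sympk, chr7:19054449-19054473, plus strand: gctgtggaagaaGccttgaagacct
Mrps26, chr2:130563840-130563864, plus strand: tcctgcccgtgcGcggccgcaagac
Son, chr16:91651719-91651743, plus strand: tcccaaatgaagAaatagtgcagaa
Gabarapl1, chr6:129533495-129533519, plus strand: gaaggtgaaaagAttaggaagaaat
Pabpc4, chr4:123282867-123282891, plus strand: aaaacacaaaagCctcaaaaacctt

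The capital letter is a guanine at Sympk and Mrps26 and an adenine at Son and Gabarapl1, although the table lists each with a level. Sympk, a polyadenylation scaffold gene, had 44 unconverted of 75 used reads and 92 covering. Son, which encodes a splicing cofactor, had 24 of 97, with 120 covering. Pabpc4, a poly(A)-binding protein gene, is 1 of the 3 exceptions on a cytosine, with 56 of 58 reads used and 12 unconverted. The other two are Cd200r4 (39 of 43 reads used) and Gm45920 (31 of 32).

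Since all 74 sites lay on a cytosine, counts of their subsets had to give the same and add no support. These subsets were 66 plus-strand sites, 8 minus-strand sites and 30 with 50 or more covering reads. On the plus strand 218 of 486 other sites (44.9%) lay on a cytosine. On the minus strand 40 of 41 did, and the remaining 1 lay on a guanine. Of the 272 positions with 0.8 or more of the reads used, 271 were on the plus strand. The minus strand thus held too few of them to show whether the base split holds there. Reading the base before or after the listed position instead gave a cytosine at 23 and 32 of the 74 sites, far from the 74 of 74 at the listed position. Sites called in both KO replicates, which the rule left out, were divided similarly: all 19 with an approximate share under 0.3 and all 94 with 0.3 to under 0.7 lay on a cytosine, against 0 of 31 with 0.78 or more (exact upper limit 11.2%). Of the 3 between 0.7 and 0.78, 1 lay on a cytosine and 2 on an adenine. Among single calls under 30 covering reads, 1782 of 1782 positions with a share under 0.8 lay on a cytosine, against 554 of 2924 (18.9%) with 0.8 or more. These windows hold only 1.22% of all listed sites and lie near gene starts, so the base of most sites was not read here.

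**Figure D1:**
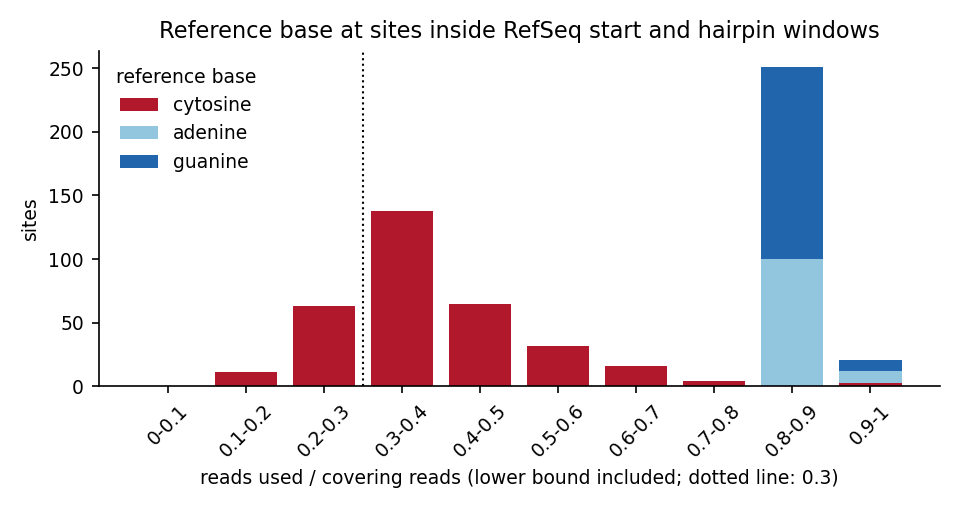
Number of positions by share of covering reads used (x axis, bins of 0.1) and reference base (stacked colours), for the 601 positions inside RefSeq start or hairpin windows; the dotted line is the limit of 0.3. All 74 sites left of the line are cytosines, and nearly all of the 272 positions at 0.8 or more are adenines or guanines.

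The bases next to the cytosine could be compared at only 72 sites under the limit, too few to show that they are alike under and above it. A guanine followed at 21 of the 72 sites with at least 5 readable bases on each side (29.2%, exact interval 19.1 to 41.1%) and at 64 of 237 cytosines with 0.3 to under 0.8 of the reads used (27.0%). Another cytosine followed at 43.1% of the sites (31.4 to 55.3%) and at 33.3% of those comparison cytosines, and the intervals overlap. An adenine followed at 12.5% of the sites and 18.1% of the comparison cytosines, and a thymine at 15.3% and 21.5%. Median GC content of the 10 flanking bases was 70% in both groups.

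The share of reads used had 2 separate ranges over the 71386 positions. From 0.1 upward the counts rose from 615 positions at 0.1 to 0.2, through 5047 at 0.2 to 0.3, to 10126 at 0.3 to 0.4, and then fell to 834 at 0.7 to 0.8. There was a step at 0.8: 21 positions had a share of 0.79 to 0.80 and 12894 a share of 0.80 to 0.81. The limit of 0.3 thus cuts through the flank of the lower range, and 125 positions sit exactly on it and count as other sites. The 22827 other sites with 0.3 to under 0.8 of the reads used are called the middle sites, and the 42885 with 0.8 or more the upper sites.

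**Figure D2:**
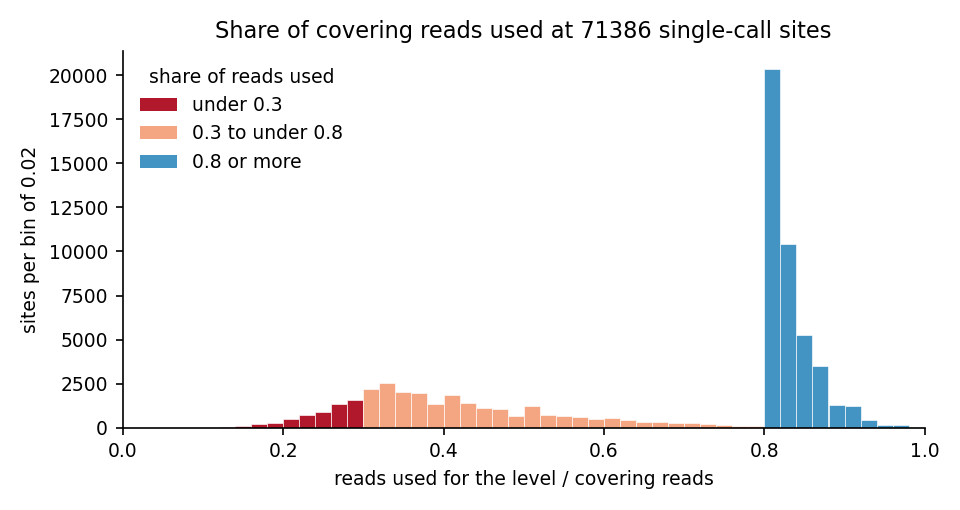
Number of positions (y axis) per bin of 0.02 in the share of covering reads used for the level (x axis), over 71386 single-call positions. The 5674 sites under 0.3 form the lower flank of a broad range that peaks between 0.3 and 0.4, and a separate peak starts at 0.8.

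Levels at these sites rest on few reads. Covering reads ran from 34 to 249 with a median of 44, but reads used had a median of 11, and exactly 10 reads were used at 2569 sites (45.3%). None of the 71386 positions had fewer than 10 reads used, which is why a site needs at least 34 covering reads to fall under the limit. Positions with 30 or more but fewer than 34 covering reads thus all count as other sites. Only 131 sites (2.31%) had 20 or more reads used. Unconverted reads numbered 2 to 19, with a median of 6. The level had a median of 0.5 (quartiles 0.3 and 0.727), beside 0.375 at middle and 0.5 at upper sites, and 414 sites (7.30%) had a level of 1. Every used read was unconverted there, but a level of 1 from 10 reads is a coarse value.

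The sites with the most covering reads show the gap most plainly. Capza2, which encodes an actin-capping subunit, had 249 covering reads, of which 71 were used and 15 unconverted, a level of 0.211 (Wilson 95% interval 0.132 to 0.320). Lgals1, the gene of the lectin galectin-1, had 48 of 190 reads used and a level of 0.229 (0.133 to 0.365). Fmnl1, a formin gene of blood cells, had 49 of 171 used and a level of 0.224. Levels at these 3 sites lay close to 0.2, the lowest level in the table. Atp6v0e, a proton pump subunit gene, and Riok3, a kinase gene, each had 45 of 161 reads used with 9 unconverted. Snx5, a sorting nexin gene, was the deepest site on the minus strand, with 23 of 167 used and a level of 0.391.

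At the lowest shares almost all covering reads were left out. Tmbim6, which encodes an inhibitor of cell death in the endoplasmic reticulum, had 11 of 148 reads used (7.43%) and 5 of them unconverted. Scd2, a fatty acid desaturase gene, had 12 of 158 (7.59%) and 4 unconverted. Prtn3, the gene of the neutrophil granule protease proteinase 3, had 13 of 169 (7.69%) and 7 unconverted. The intervals on these levels are wide: 0.455 at Tmbim6 has a Wilson interval of 0.213 to 0.720. Ddb1, a DNA damage-binding gene, had 10 of 11 used reads unconverted among 142 covering, a level of 0.909 (0.623 to 0.984). Arrb1, the beta-arrestin gene, had 9 of 10 among 128. Yaf2 and Srrt, on the minus strand, each had 2 of 10, with 113 and 111 covering reads. Mybbp1a, a nucleolar Myb-binding protein gene, had 6 of 10 with 109 covering.

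Around the limit itself the values run on without a gap. Just inside were the histone gene H2afx with 29 of 97 reads used, Trim35 with 23 of 77, and Prmt5, Abcg1 and Ski with 20 of 67 each. Just outside, at exactly 30%, were Uba2 with 45 of 150, Vars with 30 of 100, the RNA methyltransferase gene Nsun2 with 24 of 80, Ubp1 with 21 of 70 and Gas7 with 18 of 60.

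How often a position fell under the limit depended on its coverage, which is part of the rule. The share was 10.3% at 34 to 39 covering reads, 13.4% at 40 to 49, 11.5% at 50 to 69, 6.80% at 70 to 99 and 3.95% at 100 or more. The 2 KO libraries could be told apart at higher coverage by the scaling factor of the deposited normalized coverage, 0.977 in one and 0.994 in the other; which replicate each one is was not determined. The library with the lower factor held 1752 sites among 15178 positions (11.5%) and the one with the higher factor 1126 among 11084 (10.2%). Median levels of the sites were 0.455 and 0.429 in these libraries. The remaining 2796 sites could not be assigned, and both libraries thus had many such sites.

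Strand was not used by the rule, and the minus strand held far more of these sites than its share of positions. On the plus strand 5074 of 69616 positions were under the limit (7.29%), and on the minus strand 600 of 1770 (33.9%, exact interval 31.7 to 36.2%). Upper sites made up 61.5% of plus-strand and 2.49% of minus-strand positions, which widens this difference. With upper sites left aside it is smaller: 5074 sites beside 21701 middle sites on the plus strand, and 600 beside 1126 on the minus strand. The minus strand made up 10.6% of these sites, 4.93% of middle sites and 0.103% of upper sites, where it had 44 positions. Minus-strand sites also had lower levels, with a median of 0.214 against 0.545 on the plus strand. The other sites differed likewise, with medians of 0.231 and 0.474, so this is not particular to the sites under the limit. All intervals on shares of sites cover counting error only and are too narrow, since neighbouring sites share reads.

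**Figure D3:**
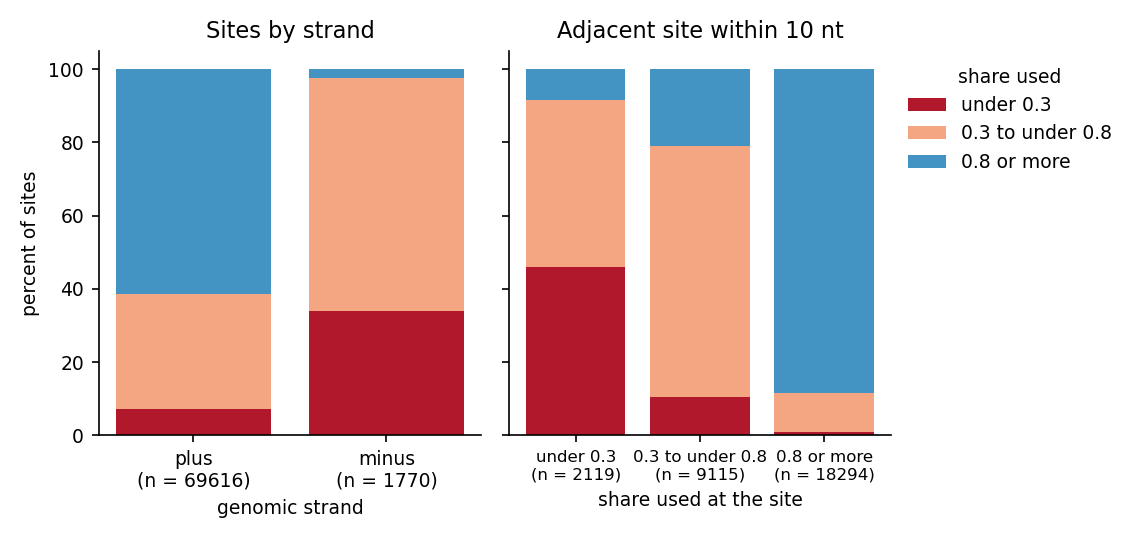
Percent of positions by share of reads used (stacked colours), on the plus and the minus strand (left) and for the adjacent position within 10 nt of a site of each kind (right). On the minus strand 33.9% of positions are under 0.3 against 7.29% on the plus strand, and 46.1% of positions adjacent to a site under 0.3 are themselves under 0.3.

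On the plus strand, which held most of them, the sites lay near each other more often than the other sites lay near them. There, another such site stood within 10 nt of 931 of 5074 sites (18.35%, exact interval 17.3 to 19.4%) and of 1231 of 64542 other sites (1.91%). On both strands together it was 945 of the 5674 (16.7%, exact interval 15.7 to 17.6%) and 1254 of the 65712 other sites (1.91%). Among only those other sites with under 0.8 of the reads used it was 4.62%. On the minus strand the shares were close, 14 of 600 (2.33%, 1.28 to 3.88%) against 23 of 1170 (1.97%), with overlapping intervals. Listed positions as a whole were no denser around the sites under the limit, counted on both strands. Any other listed position lay within 10 nt of 44.5% of these sites and of 55.4% of the other sites. Of adjacent positions within 10 nt of these sites, 46.1% were under the limit too, 45.6% were middle sites and 8.35% were upper sites. Next to middle sites 10.6% were under the limit. Next to upper sites, 88.5% were upper and 0.968% under the limit.

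Most sites were still alone. With a gap of at most 10 nt, the sites formed 5157 runs, of which 4729 (91.7%) held a single site and 4 held 5 or more. The longest lay at chr8:117256937-117256961 on the plus strand, in the start window of Cmip, with 6 sites. Its covering reads were 74, 70, 69, 71, 65 and 58, the reads used 11, 12, 14, 11, 11 and 10, and the unconverted reads 9, 7, 9, 6, 6 and 9. Levels ran from 0.545 to 0.9 over the 6 sites, and all came from the library with the lower factor. Casc3, which encodes a subunit of the exon junction complex, had 5 sites within 13 nt, with 58 to 63 covering reads, 10 to 16 used and levels of 0.4 to 0.5. Arrb1 had 5 within 23 nt with levels of 0.4 to 0.909. Igfbp4, the gene of a secreted binding protein for insulin-like growth factors, had 5 within 17 nt, with levels from 0.214 to 1.

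Neighbours covered by nearly the same number of reads could differ in how many were used. Each position is a call of 1 KO library, and the positions of a pair can come from different libraries. Nearly equal coverage thus need not mean the same reads. Within 3 nt and 2 covering reads of each other there were 419 pairs with at least 1 site under the limit: in 142 both were under it, in 252 the partner was a middle site and in 25 an upper site. In Cenpa, the gene of the centromeric histone variant CENP-A, 14 of 55 covering reads were used at position 30668043 of chromosome 5, and 50 of 56 at the next base. In Kif21b, a kinesin gene, 13 of 45 reads were used at one base and 39 of 47 at its neighbour. The reference base of these pairs was not read here.

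Sites called in both KO replicates gave the same measure outside the rule. Their share of reads used is approximate, because it comes from means of both libraries rounded to whole reads. Of 1694 such positions with 30 or more covering reads within 50 nt of a site under the limit, the median share was 0.344 and 32.0% were under 0.3 (exact interval 29.8 to 34.3%). Near middle sites but none under the limit, the median was 0.437 and 11.4% were under 0.3. Near upper sites but none under the limit, it was 0.802 and 4.12%. Double-call positions near the sites under the limit thus had the lowest shares of the 3 sets, although those sets are not matched on coverage.

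The sites were spread over many genes. A gene label was given for 5491 sites, and 183 had none. Of 5881 genes with an eligible position, meaning a single call with 30 or more covering reads, 2833 held at least 1 site, 1572 of them exactly 1 and 205 at least 5. The 10 genes with the most sites held 122 of the 5491 (2.22%). Among 2702 genes with 10 or more eligible positions the median share under the limit was 5.88%, 899 had 0 and 7 had 50% or more.

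Abca2, a lipid transporter gene on chromosome 2, had the most, 20 of its 87 eligible positions. Its sites had 34 to 70 covering reads, 10 to 16 used and levels of 0.2 to 1. They were spread over the gene, from position 25430840 to 25448472. Arrb1 had 14 of 48, and Atp2a3, an endoplasmic reticulum calcium pump gene, 11 of 39. Larp1, which encodes a regulator of ribosomal protein mRNAs, had 11 of 49 and the guanine nucleotide exchange factor gene Rapgef1 11 of 59. The adhesion receptor gene Adgrg1 had 10 of 33, the repressor gene Cic 10 of 59 and the transporter gene Abca7 10 of 60. Itgal, the integrin alpha L gene of white blood cells, had 9 of 40 and Rcc2, a mitotic regulator gene, 9 of 43. These genes were chosen for their number of sites, so nothing is read from their shares lying above the 7.95% over all eligible positions.

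In 7 genes with 10 or more eligible positions the sites under the limit were 50% or more. Igfbp4 had 10 of 19, Mfsd13a 7 of 14, Gdi2, the gene of a Rab recycling factor, 6 of 11, and Ctdspl2, Gmppa and Tmbim6 5 of 10 each. Rn45s, the 45S precursor of ribosomal RNA, had 15 of 29, but its many near-identical copies make the placement of its reads uncertain. These genes were chosen after their values were seen. At Rn45s covering reads were 36 to 90, reads used 10 to 20 and levels 0.25 to 1 with a median of 0.818.

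In Tmbim6 the 5 sites had 47, 138, 148, 150 and 43 covering reads, from 5′ to 3′. Used were 13, 11, 11, 13 and 10 reads, and unconverted 3, 6, 5, 6 and 4. The second to the fourth, at positions 99408542, 99408550 and 99408552 of chromosome 15, had far more covering reads than the outer sites but no more than 13 reads used. In Igfbp4 the levels ranged widely: they were 1 at 3 sites, from 10 of 10, 12 of 12 and 11 of 11 used reads, 0.909 and 0.917 at another pair, between 0.455 and 0.7 at 4 sites, and 0.214 at the remaining one, from 3 of 14. Mdh2, which encodes a malate dehydrogenase of the mitochondrion, had 4 of 6 eligible positions under the limit. At its first 2 sites all used reads were unconverted, 11 of 11 and 18 of 18, with 43 and 76 covering.

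**Figure D4:**
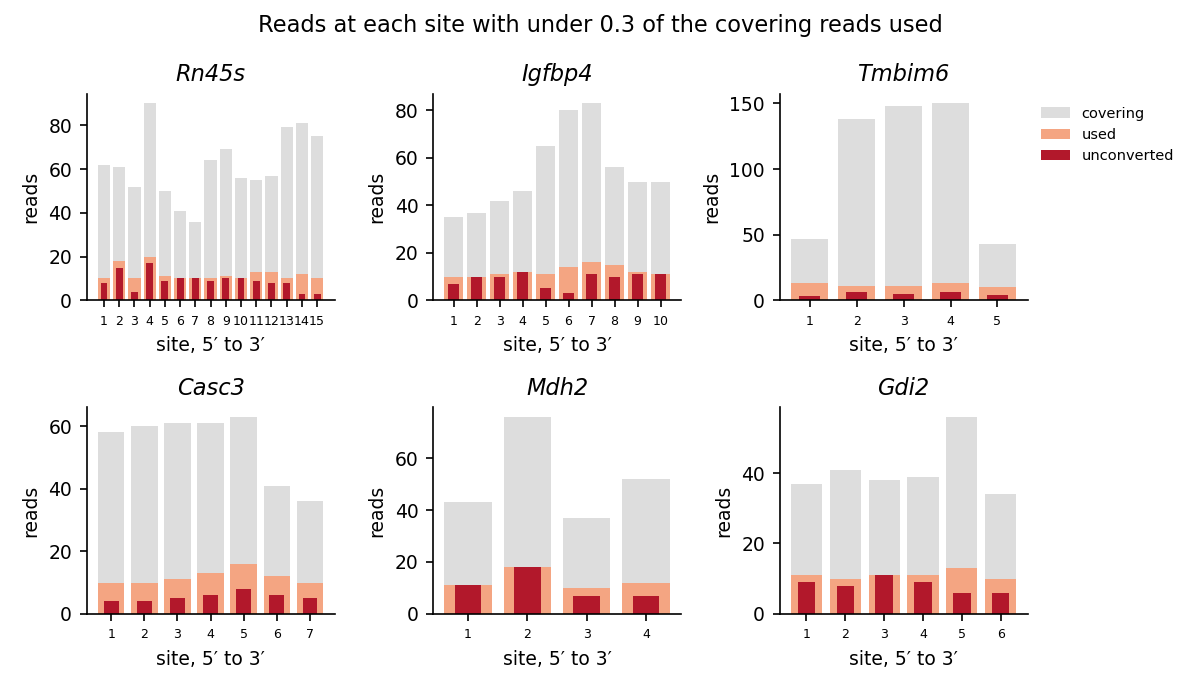
Reads at each site under the limit in 6 genes (x axis: sites numbered from 5′ to 3′); grey bars are covering reads, orange bars the reads used and red bars the unconverted reads. In Tmbim6, 3 sites have 138 to 150 covering reads and 11 to 13 used, and in Casc3 the first 5 sites have 58 to 63 covering reads and 10 to 16 used.

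Gene lists are given by their count of sites under the limit, beside 7.95% over all eligible positions. Many lists were counted, none was tested and the intervals are too narrow. So nothing is read from an interval that leaves out 7.95%. Cell cycle and mitosis genes had 35 of 275 (12.7%, exact interval 9.03 to 17.3%), over 16 genes. Cenpa and Cdc25a, the gene of a phosphatase that drives cell cycle entry, had 5 each. In Cenpa all 15 used reads of the deepest site were unconverted, with 97 covering. Glycolysis and lactate transport genes had 16 of 138 (11.6%), led by the phosphofructokinase gene Pfkm with 3 of 26, and TCA cycle and respiratory chain genes 14 of 139 (10.1%), led by Mdh2.

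Lists of blood cell identity had shares of 8.31 to 10.3%, somewhat above the share over all eligible positions. Blood stem cell and leukemia factors had 28 of 271 (10.3%), led by Cdk6 with 6 of 46. Myc, the growth-promoting transcription factor gene, had 4 of 20, with 35 to 65 covering reads, 10 to 18 used and levels of 0.2, 0.278, 0.667 and 0.273. Myeloid granule and differentiation genes had 19 of 201 (9.45%), led by the receptor gene Csf1r with 5 of 34. Homing, adhesion and tetraspanin genes had 26 of 313 (8.31%), with Itgal first and the chemokine receptor gene Ccr2 at 5 of 27. At Ccr2 the levels were 0.8, 0.2, 0.2, 0.769 and 0.357.

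Lists of RNA and protein synthesis lay on both sides of the overall share. Ribosomal protein genes had 28 of 271 (10.3%) and RNA-binding and splicing factor genes 36 of 354 (10.2%), with Hnrnpl first at 6 of 42. Translation factor genes had 17 of 343 (4.96%, exact interval 2.91 to 7.82%). Cytoskeleton genes had 13 of 217 (5.99%), MHC and antigen presentation genes 8 of 139 (5.76%), 5 of them in the peptide transporter gene Tap1, and chaperone genes 9 of 100 (9%). The 5-methylcytosine machinery had 13 of 188 (6.91%), of which Mbd1 held 5 and the DNA methyltransferase gene Dnmt3a 4. Dnmt3a levels were 0.8, 0.8, 0.615 and 1, from 8 of 10, 8 of 10, 8 of 13 and 12 of 12 used reads.

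Marker genes of the labelled cell type and of other cells were looked up for listed sites, which is no measure of expression. Only 1770 eligible positions were on the minus strand, against 69616 on the plus strand. The strand of the marker genes was not taken into account, so having or lacking sites is no evidence on the cell type. Of 8 myeloid and progenitor markers, 6 had listed sites, and Ctsg and Ptprc had 0. Sites under the limit were 3 of 18 eligible positions at Cd34, 2 of 15 at the myeloperoxidase gene Mpo, 1 of 9 at Prtn3, 1 of 6 at Elane and 0 of 4 at Spi1. Cd3e, Cd79a, Hba-a1 and Hbb-bs, markers of lymphoid and erythroid cells, had 0 listed sites, and Nkg7 had 56, of which 8 were eligible and 2 under the limit. The 6 pancreatic islet hormone genes all had listed sites, with 9 of 108 eligible positions under the limit (8.33%), 4 of them in the glucagon gene Gcg. Listed sites numbered 228 at Gcg and 217 at Mpo, the highest count among the 8 myeloid and progenitor markers. Of the 108 eligible positions in the islet genes 70.4% were on the minus strand, where 33.9% of all positions were under the limit. The minus-strand genes of the list lay below that share, with 4 of 67 at Gcg (5.97%) and 1 of 9 at Ins2 (11.1%). On the plus strand Iapp had 2 of 11 and Ins1 2 of 21. The part of strand in the list counts was not tested.

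Along genes the sites leaned to the 3′ end. The 3′-most decile of the gene span in RefSeq held 37.2% (exact interval 35.9 to 38.5%) of 5500 pairs of a site under the limit and a gene label, in which a site with several labels counts once for each. For middle sites it held 33.1% of such pairs and for upper sites 27.9%. The median distance to the 3′ end of the span was 3547 nt for sites under the limit, 4646 nt for middle and 6388 nt for upper sites. The first decile held 8.91% of the pairs (8.17 to 9.69%), with an interval that overlaps that of the middle sites (8.23%, 7.87 to 8.59%), and 5.89% for upper sites. On the minus strand alone 27.3% of the pairs (23.7 to 31.1%) and 25.7% of those of the other sites lay in the last decile, with overlapping intervals. The span includes introns, and exons and UTRs were not told apart. Over the 20 chromosomes with 100 or more eligible positions the share under the limit ran from 5.87% on chromosome 16 to 9.22% on chromosome 7. The mitochondrial genome had 0 of 39.

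**Figure D5:**
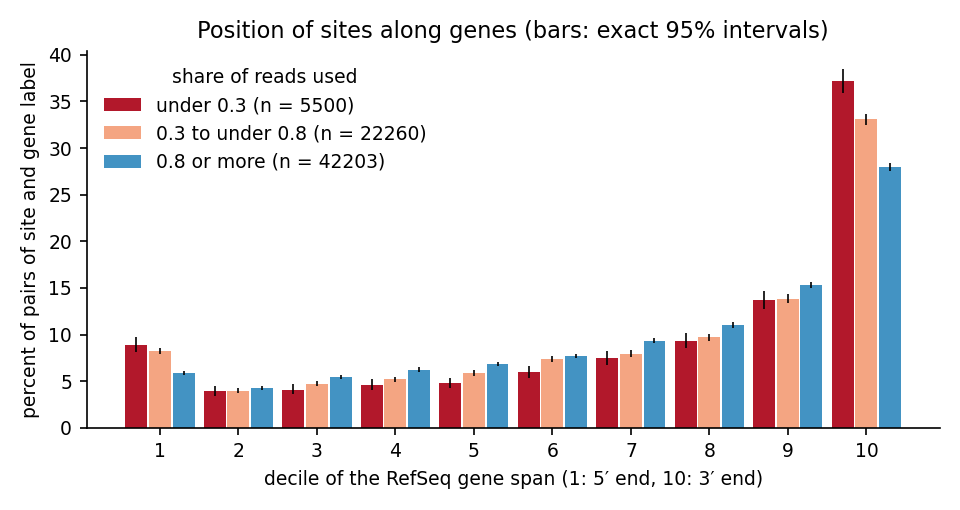
Percent of pairs of a site and its gene label (y axis) per decile of the span of its RefSeq gene (x axis, 5′ to 3′), by share of reads used; error bars are exact 95% intervals that cover counting error only. The last decile holds 37.2% of the pairs for sites under 0.3, 33.1% for middle sites and 27.9% for upper sites.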

How the data were processed

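The members and gene lists were chosen with earlier results of these data known. The deposited table lists positions called in the KO; the coverage and unconverted reads are scores, whole numbers that are the reads of 1 library at single calls and the authors' rounded means at double calls, per the file headers and the values. The deposited level is a fraction, unconverted reads over reads used. The deposited p-values and the normalized scores of the authors were not tested; the latter served only to tell libraries apart. The build is mm10, per the submitters' processing notes; no source used here names the aligner or caller. There were 0 columns of other series. Library depth is not in the table; the covering reads at a site are the only depth used.

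Reads used were the unconverted reads over the level, rounded. On data simulated at the real coverage, but with a share used well under 0.8, this recovered 100% of 71386 values. The shares of upper sites were thus not simulated. The lowest covering reads were 30 and the limit was 0.3. Intervals were exact (Clopper-Pearson) for shares and Wilson for levels, at 95%. RefSeq gene spans and windows (GRCm38.p6) gave positions and bases; 99.3% of pairs of site and label lay inside the labelled gene's span. No test was made, as the table has no WT or single-library columns. Named were the 12 genes with the most sites, the 8 deepest sites, the 8 with the lowest share, 5 on each side of the limit, the longest run and the top gene of each list; for some lists the printed gene was chosen after its values were seen. Python 3.11.15, pandas 2.3.3, numpy 2.4.6, scipy 1.17.1 and matplotlib 3.10.9 were used.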

Additional observations from a re-analysis of the deposited data

Results flagged for a closer look

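Synthetic spike-in RNAs, which none of the comparisons used, also had such sites. Of 176 single-call positions with 30 or more covering reads on 34 spike-in sequences, 17 had under 0.3 of the reads used (9.66%, exact interval 5.73 to 15.0%), beside 7.95% on the chromosomes. At 53 (30.1%) the share was 0.8 or more, and the median share was 0.420. The table used here has no WT values to set beside these counts.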

How the results depend on the processing

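The number of sites moved with the limit, from 627 at 0.2 and 2140 at 0.25 to 15800 at 0.4 and 21947 at 0.5, and was 1785 with 50 or more covering reads, 74 with 100 or more, 1752 in the library with the lower factor and 1126 in the other. The share on the plus strand, 89.4%, was 84.7% at a limit of 0.2, 93.2% at 0.5, 82.1% with 50 or more covering reads, and 86.0% and 84.7% in the lower- and higher-factor library. The share with another such site within 10 nt, 16.7%, was 14.0% at 0.2, 26.9% at 0.5, 15.5% and 11.55% in the lower- and higher-factor library, 18.35% on the plus strand only (a setting chosen after seeing the data) and 25.3% within 50 nt. The last decile share, 37.2%, was 43.8%, 34.65%, 39.2% and 39.95% at 0.2, at 0.5, with 50 or more covering reads and in the lower-factor library. For other sites the neighbour share was 1.03% and 0.602% in the lower- and higher-factor library. With the other sites standardised to the coverage of the sites under the limit, it was 2.37%. Standardised likewise, 52.7% of them had any listed position within 10 nt, 29.5% of their pairs lay in the last decile and 98.2% were on the plus strand. The cause of these shifts was not tested beyond what the settings themselves change. The share at a reference cytosine was 100% under every setting run. None of the alternative settings for the base was planned. All kept to sites with under 0.5 of the reads used, where all 277 positions read were cytosines, so they add no support. The median share at nearby sites called in both replicates was 0.324 within 10 nt and 0.375 within 200 nt.

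No paired analysis was possible because the table holds no WT and no single-library columns. Leaving out 1 replicate could be done only as the split by scaling factor, and the share held by 10 genes has no value among other sites standardised to coverage. Depth limits the levels: 77.9% of the sites rest on 10 to 12 used reads, so a single read moves a level by about 0.1.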

Other observations

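Over all 6183 listed positions inside the RefSeq start and hairpin windows, at any coverage and with 1 or 2 calls, the reference base was cytosine at 3270 (52.9%, exact interval 51.6 to 54.1%), guanine at 1821, adenine at 1092 and thymine at 0. Among the 6114 of these positions with a readable base on both sides, the base before was thymine at 17.7% and the base after at 18.8%.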
